A study of Homo sapiens with 80 samples.

Results

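The BCL2 family regulators of the mitochondrial pathway of apoptosis were followed over 80 single-colour bead arrays of U2OS cells, a human osteosarcoma cell line. The 10 genes were the survival proteins BCL2, BCL2L1 and MCL1, the pore formers BAX and BAK1, and the BH3-only proteins BCL2L11, BBC3, PMAIP1, BIK and BMF. They were chosen by gene name, and every probe annotated to them was taken that was detected (detection p under 0.05) on at least 4 of the 80 arrays. Of 19 such probes 17 met this, which covered all 10 genes, among 15392 kept probes of 12547 genes in all. Both other probes, ILMN_1810239 and ILMN_1787794 of BMF, were detected on 0 arrays.

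The cells expressed 1 of 5 forms of the glucocorticoid receptor, the transcription factor that cortisol and dexamethasone activate. GRalpha is the usual form, and GRgamma is a splice variant with an additional arginine in the DNA-binding domain. As background, A477T alters the contacts between the DNA-binding domains of a receptor dimer, 30iiB is altered in AF1, the activation region near the N-terminus, and E773R in AF2, the activation surface of the hormone-binding domain. The labels give these as names only, and do not say whether each line was a single clone or which promoter drove the receptor. Dexamethasone at 100 nM was given for 2 h, for 4 h or for 24 h, and control cultures, called 0 h here, had the solvent ethanol for 4 h, in medium with 5% serum. The series states 4 biological replicates for each of these 20 groups. The 0 h culture is matched in time to the 4 h treatment, so for 2 h and 24 h the hormone and the length of culture cannot be told apart. No arrays of U2OS cells without an added receptor were analysed here.

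BCL2, BCL2L1 and MCL1 bind and hold back the pore formers at the mitochondrial membrane. BH3-only proteins relieve that block, or activate BAX and BAK1 directly, after which cytochrome c leaves the mitochondria and caspases are activated. Glucocorticoids are known to kill lymphoid cells through this pathway and BCL2L11, which encodes BIM, and BMF are known among the genes they induce there.

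Levels are log2 signals after background correction and normalisation, with mean ± SD over 4 arrays. They can be compared between arrays for 1 probe and not between probes. A probe was called changed at an adjusted p under 0.05 in limma, Benjamini-Hochberg adjusted over all 15392 kept probes within a comparison. Median signals ran from 82 to 925.75 per array, and 12233 to 17333 of all probes were detected. The U2OS label was set against its markers: VIM, COL1A1, ALPL and RUNX2 were among 7 of 10 osteosarcoma genes with a probe that were detected on at least 40 arrays, while SP7 was detected on 1 array. Of 6 blood genes with a probe 0 were detected on 40 arrays, and their summed signal ran from 353 to 431. Of 6 epithelial genes 5 were detected on at least 40 arrays (CDH1, EPCAM, KRT14, KRT18 and KRT8), with a summed signal of 2365 to 8221 over the groups. Of 6 liver genes 1 was, SERPINA1, and the summed signal of that list ran from 4520 to 15773.

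After 24 h of dexamethasone BMF was called higher and BCL2 lower in several receptor forms. In A477T neither was called, which does not show that a response was absent. BMF was higher at 24 h than at 0 h with both of its kept probes in GRalpha, GRgamma, 30iiB and E773R, by a fitted 2.64-fold to 4.04-fold on ILMN_2308338. BCL2, on its probe ILMN_2246956, was lower in GRalpha, GRgamma and 30iiB by 2.56-fold, 3.59-fold and 2.08-fold. BIK fell in 30iiB, by a fitted 6.87-fold at 24 h, where 3 of 4 arrays were above background. The sizes depended on the background correction: without it the log2 changes of BMF on ILMN_2308338 in these 4 forms were 0.6 to 0.89 in place of 1.4 to 2.01, those of BCL2 -1.14 to -0.49 in place of -1.84 to -1.05, and that of BIK -1.52 in place of -2.78, and each was still called. MCL1, BAX, BAK1, BBC3 and PMAIP1 were called in none of the 36 comparisons. In these whole cultures fewer cells with a transcript and less of it per cell cannot be told apart.

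At 24 h, 14 of the 85 tests of member probes over the 5 forms were called, 8 higher and 6 lower (16.5%, where 12.3% of the tests of all probes were called). In GRalpha 2 probes were higher and 2 lower, where 7.89% of all probes were called higher and 8.48% lower. GRgamma had 2 higher and 1 lower, with 9.17% and 7.02% of all probes. In 30iiB 2 were higher and 3 lower, with 7.6% and 7.67%. E773R had 2 higher and 0 lower, with 2.89% and 2.32%. A477T had 0 of 17 called (3 at an unadjusted p under 0.05), where 8.49% of all probes were called. At that unadjusted p 2593 of all 15392 probes passed in A477T. With 17 probes, each form's share rests on few calls. The member medians in these responses ran from -0.41 to 0.18, where those of all probes ran from -0.03 to 0.01.

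**Figure D1:**
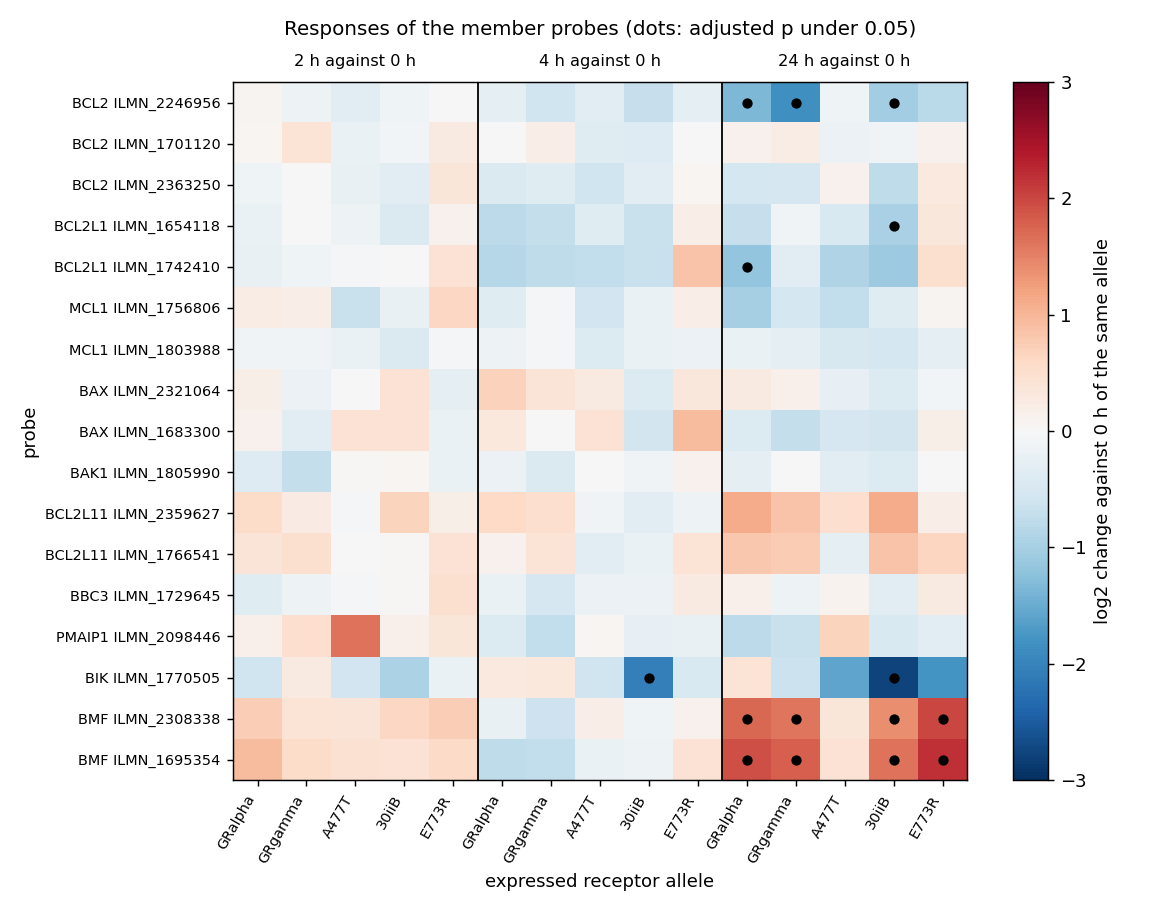
Heat map of the log2 change against 0 h of the same receptor form for the 17 member probes (rows) in the 15 responses (columns, by time), with dots at an adjusted p under 0.05. Both kept BMF probes are red with dots at 24 h in every form but A477T, BCL2 ILMN_2246956 is blue with dots in 3 forms, and dots at 2 h and 4 h number 0 and 1.

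At 2 h, 0 of the 85 member tests were called in limma (5 at an unadjusted p under 0.05), where the calls among all probes made up 1.62% (GRalpha), 1.5% (GRgamma), 1.58% (A477T), 2.1% (30iiB) and 0.312% (E773R). Of all 15392 probes 442 (E773R) to 1508 (A477T) passed at the same unadjusted p in these 2 h responses. With array weights the number of member calls at 2 h was 2, and with the authors' processed values it was 1. At 4 h the single call was BIK in 30iiB, lower, where 1.75% of all probes were called lower and 2.16% higher. Member probes were called 0 times in GRalpha (4.35% of all probes), GRgamma (3.84%), A477T (3.03%) and E773R (1.05%) at 4 h. Some alternatives changed this for BCL2L1, as described with that gene. The 4 h comparison is the only one matched in time of culture.

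BMF encodes a BH3-only protein that binds survival proteins, and it was the member with the most calls. On probe ILMN_2308338 the 4 GRalpha arrays at 0 h read 5.45, 7.31, 6.15 and 6.15, and those at 24 h read 7.55, 7.94, 8.43 and 8.07. The groups did not overlap, although the array at 7.31 came close to the lowest 24 h array. The log2 change was 1.73 (SE 0.34, adjusted p = 6.2e-05, limma), from 6.26 ± 0.77 to 8 ± 0.36 (SD, n = 4). On ILMN_1695354 the same 2 groups read 5.7, 6.57, 5.81 and 5.37 against 7.05, 7.98, 7.99 and 8.15, again without overlap. Only 1 of the 4 arrays at 0 h was above background there, and all 4 were at 24 h. That change was 1.93 (SE 0.33, adjusted p = 5.6e-06). Over the 20 group means the levels of the 2 probes correlated at r = 0.98, as a description of probes on the same arrays.

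BMF in GRgamma rose without overlap of the arrays on both probes. On ILMN_2308338 the 24 h arrays read 7.76, 7.92, 7.88 and 7.86, close to one another and all above the 0 h arrays at 6.03, 6.47, 6.57 and 5.94 (log2 change 1.61, SE 0.34, adjusted p = 0.00025). On ILMN_1695354 they were more spread, at 6.76, 7.72, 7.96 and 7.84, against 6.39, 5.66, 5.09 and 5.95 at 0 h (log2 change 1.79, SE 0.33, adjusted p = 2.9e-05). In E773R few of the 0 h arrays were above background, 1 of 4 on ILMN_2308338 and 0 of 4 on ILMN_1695354. ILMN_2308338 went from 5.64, 5.75, 5.24 and 6.46 to 6.85, 7.77, 8.29 and 8.24 (log2 change 2.01, SE 0.34, adjusted p = 1.1e-05). On ILMN_1695354 the E773R arrays at 0 h were 4.94, 4.92, 5.48 and 4.92, none well above background, and those at 24 h were 6.16, 7.59, 7.78 and 7.44. The rise there was at least 2.31-fold (adjusted p = 1.3e-06), taking for the undetected group the lowest signal above background on each array. In 30iiB the groups overlapped: on ILMN_2308338 the 0 h arrays spread over 5.81, 4.84, 6.25 and 6.97, and the 24 h arrays over 6.54, 7.7, 7.6 and 7.65 (log2 change 1.4, SE 0.34, adjusted p = 0.0014). That call was lost when only these 8 arrays were fitted (adjusted p = 0.067).

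A477T had the lowest 24 h mean of BMF on both kept probes, and levels at 24 h were not compared between forms in a test. On ILMN_2308338 its arrays read 5.32, 6.57, 5.13 and 5.63 at 0 h and 6.15, 6.81, 6.31 and 4.86 at 24 h, so that the groups overlapped fully. The change of 0.37 (95% CI -0.31 to 1.05, adjusted p = 0.72) did not pass the test. On ILMN_1695354 it was 0.43 (95% CI -0.24 to 1.09, adjusted p = 0.64), from 0 of 4 arrays above background at 0 h to 2 of 4 at 24 h. The order of the 24 h means on ILMN_2308338 was GRalpha 8, GRgamma 7.85, E773R 7.79, 30iiB 7.37 and A477T 6.03. GRalpha, GRgamma and E773R overlapped one another, 30iiB overlapped GRalpha and E773R and lay below GRgamma, and A477T overlapped the lowest 30iiB array alone, at 6.54.

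**Figure D2:**
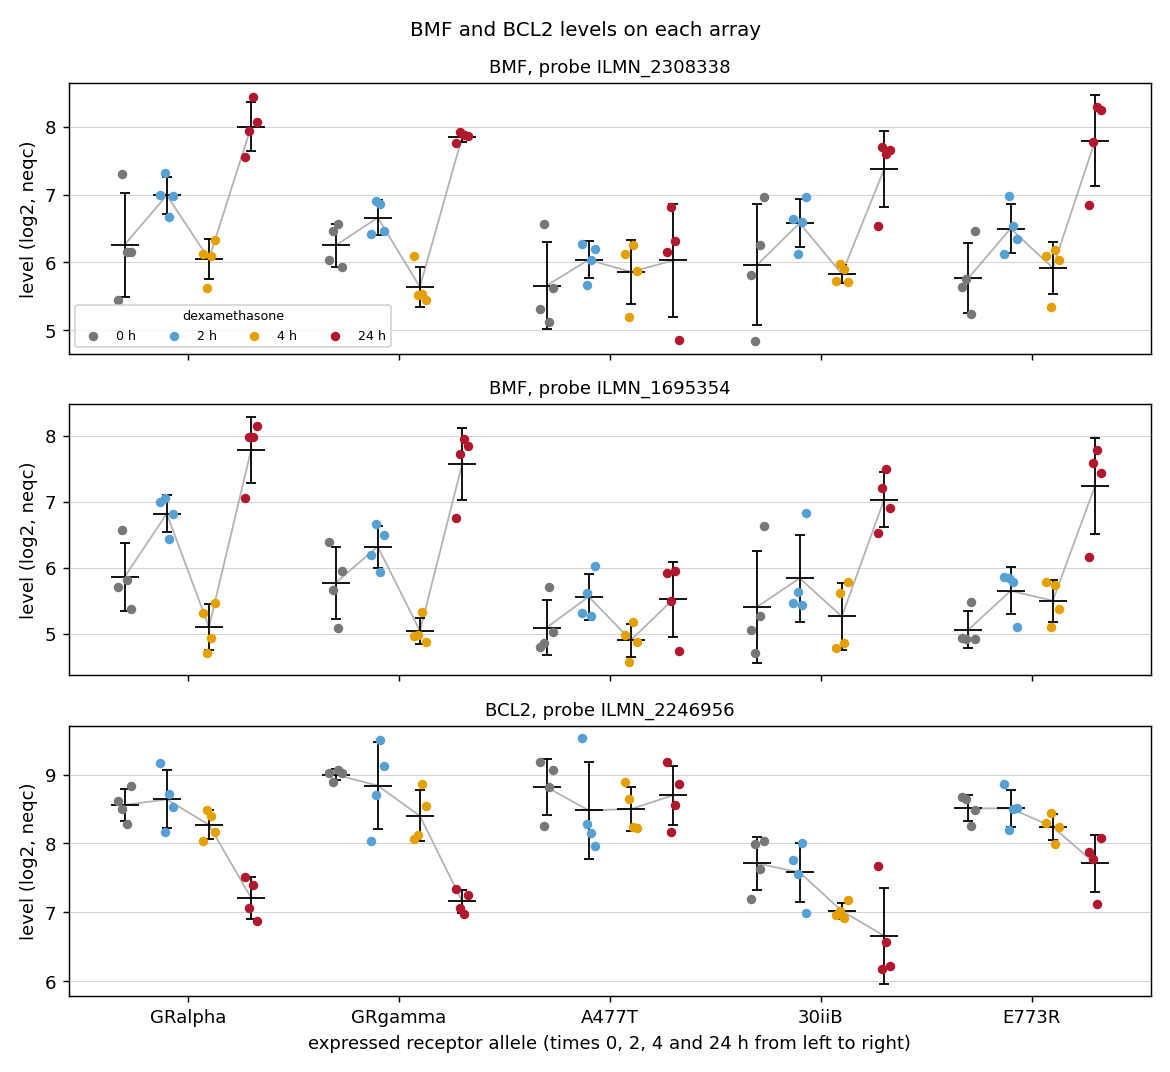
Levels (log2 scale after neqc) on each of 80 arrays for both kept BMF probes and BCL2 ILMN_2246956, by receptor form and time, with the mean (bar) and SD (whiskers) of 4 arrays and a line through the means. BMF means step up at 2 h, down at 4 h and up at 24 h in GRalpha (6.26, 6.99, 6.05 and 8 on ILMN_2308338), while BCL2 at 24 h lies below every 0 h array in GRalpha, GRgamma and E773R.

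The course of BMF over time was not monotonic. On ILMN_2308338 the GRalpha mean went from 6.26 at 0 h to 6.99 at 2 h and 6.05 at 4 h before it reached 8 at 24 h. The 2 h changes were above 0 with both probes in all 5 forms, from 0.38 to 0.96, and none passed the test; the smallest adjusted p was 0.21, for ILMN_1695354 in GRalpha. At 4 h the changes ran from -0.76 to 0.44, with 0 of 10 called. ILMN_1695354 was above background on 0 of the 20 arrays at 4 h, against 13 of 20 at 2 h. The 2 h group was not compared with the 4 h group in a test.

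From 4 h to 24 h, 11 of 85 member tests were called, 9 higher and 2 lower (12.9%, where 7.74% of the tests of all probes were called). Of these, 8 were BMF, both probes in the same 4 forms as against 0 h. In GRalpha 2 member probes were higher and 1 lower, where 4.92% of all probes were called higher and 5.11% lower, and in GRgamma also 2 and 1, with 4.77% and 4.07%. In 30iiB 3 were higher and 0 lower (6.05% and 5.37% of all probes), in E773R 2 were higher and 0 lower (2.44% and 1.3%), and A477T had 0 called (4.65% of all probes). On ILMN_1695354 the rise from 4 h, where no array of these groups was above background, was at least 3.74-fold in GRalpha (from 5.1 to 7.79, adjusted p = 2.9e-09), at least 3.09-fold in GRgamma (5.04 to 7.57, 2.9e-08), at least 2.39-fold in 30iiB (5.26 to 7.03, 5.5e-05) and at least 2.06-fold in E773R (5.5 to 7.24, 0.00023). The E773R call was lost when only its 8 arrays were fitted (adjusted p = 0.082). On ILMN_2308338 the log2 changes were 1.95, 2.21, 1.54 and 1.87. Both times had the hormone, so this comparison differs in length of treatment and of culture.

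The A477T response of BMF differed from that of GRalpha at 24 h on 1 of the 2 probes. The difference was -1.5 on ILMN_1695354 (SE 0.47, 95% CI -2.45 to -0.56, adjusted p = 0.049) and -1.36 on ILMN_2308338 (SE 0.48, 95% CI -2.32 to -0.4, adjusted p = 0.11). It was the only call among 204 tests of member probes against GRalpha, where 2.29% of all probes were called lower in this comparison and 2.24% higher. The call was lost in 16 of 27 alternatives, with adjusted p from 0.0061 to 0.22, among them the fit without the 8 arrays of the dimmest slide, an alternative added after the data were seen (-1.38, adjusted p = 0.22) and fits without any 1 of 11 arrays (differences -1.58 to -1.24). With the slide as a block it was -1.77 (adjusted p = 0.0061). The probe was above background on 0 of the A477T arrays at 0 h and on 2 at 24 h, so the A477T side of this difference rests on values at background.

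Promoter windows were set beside these members because BMF and BCL2 moved in opposite directions in 3 of the forms. RefSeq promoter sequences (GRCh38.p14) were matched by symbol for 8 of the 10 genes, with 10 windows of 250 bases before a gene start. BIK and MCL1 had none in the table. The glucocorticoid response element (AGAACA, 3 free bases, TGTTCT), its relaxed form (AGAACA, 3 free bases, TGTNCN), which includes the first, and the half-site AGAACA, which lies inside both, were searched on both strands. The half-site was added after the values were seen. They were found in 0 of the 10 windows, where 12.4% of 35116 windows of the same length held the half-site, 0.0797% the relaxed form and 0.00285% the full element. No match says only that these letters are absent from these windows. The 3 windows of BMF and BCL2 are shown, 5′ to 3′ on the gene's strand, without capitals since no motif was found. The BMF windows lie at chr15:40106967-40107216 and chr15:40108880-40109129 and that of BCL2 at chr18:63319770-63320019, all on the minus strand.
BMF, window at 40106967: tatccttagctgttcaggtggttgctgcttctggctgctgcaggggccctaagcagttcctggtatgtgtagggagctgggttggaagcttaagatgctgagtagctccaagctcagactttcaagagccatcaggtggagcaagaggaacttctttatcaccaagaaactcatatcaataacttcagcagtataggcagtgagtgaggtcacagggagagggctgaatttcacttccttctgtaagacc
BMF, window at 40108880: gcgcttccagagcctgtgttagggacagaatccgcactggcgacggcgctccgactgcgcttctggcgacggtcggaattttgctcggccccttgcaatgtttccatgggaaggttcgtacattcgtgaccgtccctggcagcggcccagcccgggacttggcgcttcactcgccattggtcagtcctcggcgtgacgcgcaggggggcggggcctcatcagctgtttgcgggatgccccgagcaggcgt
BCL2, window at 63319770: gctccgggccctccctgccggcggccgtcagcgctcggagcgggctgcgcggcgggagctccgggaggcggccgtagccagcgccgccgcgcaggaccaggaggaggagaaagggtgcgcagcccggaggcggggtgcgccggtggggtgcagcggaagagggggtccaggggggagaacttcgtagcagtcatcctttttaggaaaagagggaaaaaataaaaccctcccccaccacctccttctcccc
The first BMF window is 48.8% G and C, the second 65.2% and that of BCL2 70%, where the median over all windows is 58%.

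BCL2, the survival protein that gives the family its name, was read by 3 kept probes. ILMN_2246956 was above background on 79 arrays, and both others, ILMN_1701120 and ILMN_2363250, on 30 and 22. In GRgamma the ILMN_2246956 arrays read 9.02, 8.89, 9.06 and 9.03 at 0 h and 7.34, 7.06, 6.97 and 7.25 at 24 h. The groups lay far apart, and the log2 change of -1.84 (SE 0.28, adjusted p = 3.2e-07) was the smallest p of any member response. GRalpha went from 8.62, 8.5, 8.28 and 8.84 to 7.51, 7.06, 7.39 and 6.87, also without overlap (log2 change -1.35, SE 0.28, adjusted p = 0.00013). In 30iiB, BCL2 started lower at 7.19, 7.99, 7.63 and 8.04, and ended at 7.67, 6.18, 6.57 and 6.22, with 1 array inside the 0 h range (log2 change -1.05, SE 0.28, adjusted p = 0.0035). That 30iiB call was lost when only these 8 arrays were fitted (adjusted p = 0.087).

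E773R and A477T did not pass the test for BCL2. The E773R arrays read 8.67, 8.64, 8.25 and 8.49 at 0 h and 7.87, 7.78, 7.12 and 8.08 at 24 h, which did not overlap, with a change of -0.8 (95% CI -1.35 to -0.24, adjusted p = 0.089). With the slide as a block it was -0.91 (adjusted p = 0.0063). The A477T arrays were 9.18, 8.25, 8.82 and 9.06 at 0 h and 9.19, 8.17, 8.56 and 8.86 at 24 h, nearly the same values in both groups. The difference between the A477T and GRalpha responses was 1.23 (SE 0.39, 95% CI 0.44 to 2.01, adjusted p = 0.058), which missed the threshold, and 1.27 (adjusted p = 0.0081) with the slide as a block.

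BCL2 at 24 h was also below 4 h in GRalpha (log2 change -1.06, SE 0.28, adjusted p = 0.0052) and GRgamma (-1.25, SE 0.28, adjusted p = 0.001). At 4 h itself the changes against 0 h were all below 0, from -0.69 to -0.27, with 0 called. At 24 h the order of the means was A477T 8.7, E773R 7.71, GRalpha 7.21, GRgamma 7.16 and 30iiB 6.66, and the A477T arrays lay above those of every other form. The other 2 BCL2 probes were called in 0 of their responses, and with the slide as a block ILMN_2363250 was called lower in 30iiB at 24 h (-0.77, adjusted p = 0.046, with 0 of 4 arrays above background at 24 h). ILMN_2363250 followed ILMN_2246956 over the 20 group means (r = 0.73) and ILMN_1701120 did not (r = -0.023).

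**Figure D3:**
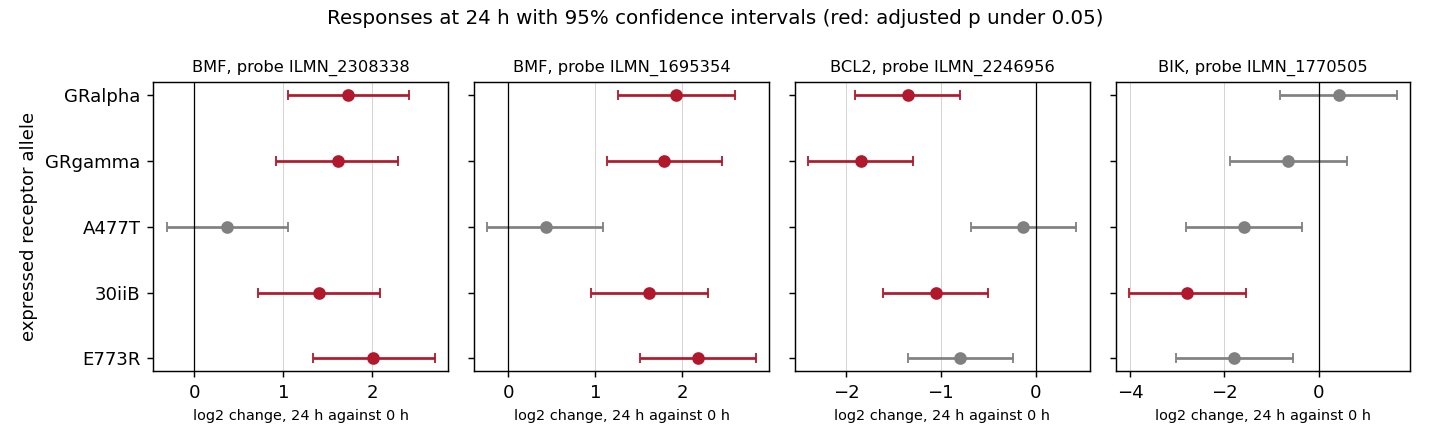
Log2 change at 24 h against 0 h with 95% confidence intervals from limma for both kept BMF probes, BCL2 and BIK by receptor form (red where the adjusted p was under 0.05). A477T lies nearest 0 for BMF (0.37 and 0.43) and BCL2, while for BIK the lowest value is that of 30iiB at -2.78.

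BCL2L1, which encodes the survival protein BCL-xL, was lower at 24 h in 2 forms, each on a different probe. On ILMN_1742410 the GRalpha arrays went from 10.09, 10.14, 10.91 and 10.11 at 0 h to 8.99, 9.71, 9.24 and 8.6 at 24 h without overlap (log2 change -1.18, SE 0.41, adjusted p = 0.034). On ILMN_1654118 GRalpha read 14.04, 14.08, 13.46 and 13.73 at 0 h and 12.86, 13.5, 12.97 and 13.27 at 24 h, with slight overlap and a change of -0.68 that missed the threshold (adjusted p = 0.086). Under the slide block it passed (-0.7, adjusted p = 0.019), as did ILMN_1742410 in 30iiB, described next (-1.17, adjusted p = 0.013). The ILMN_1742410 call was lost without GRalpha 0 h replicate 3 (-0.98, adjusted p = 0.14), or without GRalpha 24 h replicate 1 (-1.13, 0.079), 3 (-1.22, 0.054) or 4 (-1, 0.13).

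In 30iiB the call fell on the other BCL2L1 probe. ILMN_1654118 read 14.72, 13.84, 13.58 and 14.47 at 0 h and 12.84, 13.06, 13.29 and 13.54 at 24 h, without overlap (log2 change -0.97, SE 0.28, adjusted p = 0.0073). Without 30iiB 0 h replicate 1 it was -0.78 (adjusted p = 0.066), and with only these 8 arrays fitted the adjusted p was 0.058. ILMN_1742410 changed by -1.09 there, with overlapping arrays (adjusted p = 0.059). E773R was the only form with values above 0 on both BCL2L1 probes at 24 h, and neither passed the test. At 4 h, the time matched in culture, BCL2L1 was called in 0 forms, with ILMN_1654118 at -0.79 in GRalpha (adjusted p = 0.1). The slide block called that probe lower in GRalpha (-0.81, adjusted p = 0.031) and GRgamma (-0.8, adjusted p = 0.028), and not BIK in 30iiB. The fit without the dimmest slide called ILMN_1742410 lower in GRgamma (-1.35, adjusted p = 0.043). Over the 20 group means the 2 probes correlated at r = 0.82.

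MCL1, a short-lived survival protein, was called in 0 comparisons. Its probe ILMN_1756806 had the largest value in GRalpha at 24 h, from a mean of 11.65 to 10.66 without overlap of the arrays (log2 change -0.99, 95% CI -1.72 to -0.25, adjusted p = 0.056). Under the slide block this was -0.93 (adjusted p = 0.011). On the other MCL1 probe, ILMN_1803988, all 15 responses lay between -0.53 and -0.06. The 2 probes correlated at r = 0.4 over the group means, so they give MCL1 no single course.

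BAX and BAK1, the proteins that open the outer mitochondrial membrane, were measured on all 80 arrays and called in 0 comparisons. The BAX responses ran from -0.41 to 0.68 on ILMN_2321064 and from -0.72 to 0.96 on ILMN_1683300. BAK1 responses ran from -0.72, in GRgamma at 2 h (adjusted p = 0.24), to 0.12. BAX arrays spread widely within groups, with a pooled SD of 0.621 and 0.657 on its probes against 0.363 for BAK1. At 0 h both BAX probes read higher in all 4 variants than in GRalpha, by 0.37 to 1.06, and none of these passed the test (smallest adjusted p = 0.28).

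BCL2L11 encodes BIM, a BH3-only protein that binds every survival member. On ILMN_2359627 all 5 forms had 24 h means above 0 h, by 0.2 to 1.12, and 0 of them passed the test. In GRalpha the arrays read 8.13, 8.39, 8.07 and 6.6 at 0 h and 8.56, 9.01, 9.13 and 8.95 at 24 h, without overlap (log2 change 1.12, 95% CI 0.22 to 2.01, adjusted p = 0.082). Under the slide block this was 1.32 (adjusted p = 0.0046), and the other probe, ILMN_1766541, passed too in GRalpha (1, adjusted p = 0.03) and GRgamma (1.02, adjusted p = 0.039). The 1 call of BCL2L11 was 24 h against 4 h in 30iiB: 6.88, 6.7, 8.1 and 7.96 at 4 h and 9.13, 9.23, 8.96 and 8.19 at 24 h, separated by a narrow gap (log2 change 1.47, SE 0.45, adjusted p = 0.019). That call was lost with the slide as a block (0.97, adjusted p = 0.081) and without 30iiB 4 h replicate 1 (1.3, 0.086) or 2 (1.23, 0.11) or 24 h replicate 1 (1.39, 0.06) or 2 (1.35, 0.069).

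BBC3 (PUMA) and PMAIP1 (NOXA), BH3-only proteins known as p53 targets, were called in 0 comparisons. BBC3 was above background on 26 arrays, and its responses ran from -0.51 to 0.47. PMAIP1 was above background on all 80 and was the noisiest member, with a pooled SD of 1.157. Its largest response was 1.62, in A477T at 2 h (adjusted p = 0.49), and the others ran from -0.79 to 0.67.

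BIK, a BH3-only protein of the endoplasmic reticulum, differed most between the receptor forms before hormone. In 30iiB at 0 h its arrays read 8.6, 8.97, 8.66 and 9.66, all above those of GRalpha at 8.51, 6.05, 5.6 and 5.26. GRalpha replicate 1 stood near the 30iiB arrays, and 2 of the 4 GRalpha arrays were above background. The difference was 2.62 (SE 0.62, 95% CI 1.38 to 3.86, adjusted p = 0.0092), the single call among 68 member tests at 0 h, where 0.871% of all probes were called higher in this comparison and 0.422% lower. It was lost without the dimmest slide (2.25, adjusted p = 0.066), without GRalpha 0 h replicate 3 (2.37, 0.07) or 4 (2.25, 0.1), without 30iiB 0 h replicate 4 (2.39, 0.059), and when only these 8 arrays were fitted (adjusted p = 0.13). The other 0 h comparisons with GRalpha held 0 member calls, where 0.435% of all probes were called in GRgamma, 2.17% in A477T and 0.526% in E773R. The 0 h means of BIK ran in the order 30iiB 8.97, A477T 8.14, E773R 7.46, GRalpha 6.36 and GRgamma 6.05, where the 30iiB arrays lay above those of every other form, those of GRgamma lay below those of A477T, and all other pairs of forms overlapped.

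In 30iiB, BIK was lower at 4 h and 24 h of dexamethasone than at 0 h. The 4 arrays at 0 h are those that gave the 0 h call, so these calls are not independent of it. At 24 h the 30iiB arrays read 6.6, 6.35, 6.85 and 4.98, far below the 0 h arrays (log2 change -2.78, SE 0.62, adjusted p = 0.00044), a call kept in all 21 alternatives, with values from -3 to -1.41, the last from the authors' processed values. At 4 h they read 7.76, 5.62, 7.14 and 7.14, all below the 0 h arrays (log2 change -2.06, SE 0.62, adjusted p = 0.039). The 4 h call was lost with the slide as a block (-1.33, adjusted p = 0.22), without the detection filter (adjusted p = 0.053) and without any 1 of 7 of its 8 arrays, 30iiB 0 h replicates 1 to 4 and 4 h replicates 2 to 4 (-2.18 to -1.63, adjusted p from 0.051 to 0.29).

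In A477T and E773R the BIK values at 24 h were -1.59 (adjusted p = 0.12) and -1.79 (adjusted p = 0.088), without overlap of the arrays in either. In GRalpha the 24 h arrays, 6.9, 6.85, 6.24 and 7.12, lay within the range of 0 h (log2 change 0.42, adjusted p = 0.77). The difference between the 30iiB and GRalpha responses at 24 h was -3.2 (95% CI -4.95 to -1.45, adjusted p = 0.12). With the slide as a block it was -2.98 (adjusted p = 0.034), and the A477T response was -1.88 (adjusted p = 0.01). GRalpha enters each difference from GRalpha, so those of the 4 variants share its 8 arrays. The 24 h means of BIK ran from 5.4 in GRgamma, where 0 of 4 arrays were above background, to 6.78 in GRalpha.

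**Figure D4:**
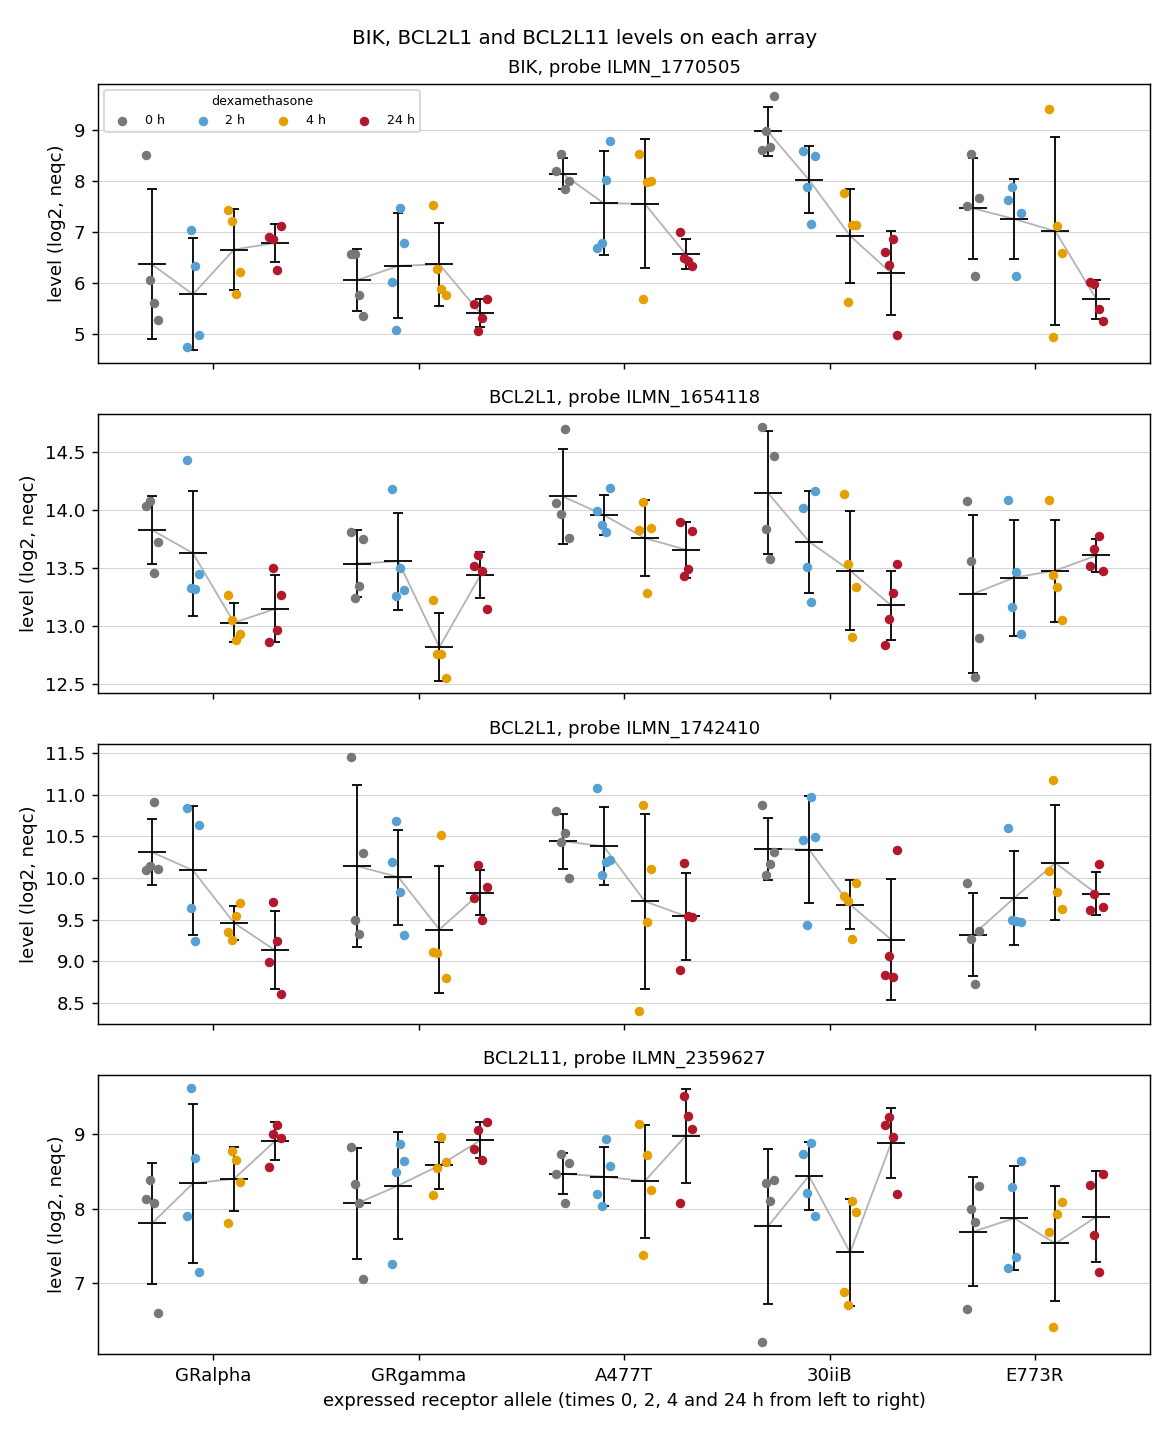
Levels (log2 scale after neqc) on each of 80 arrays for BIK, both BCL2L1 probes and BCL2L11 ILMN_2359627, by receptor form and time, with the mean (bar) and SD (whiskers) of 4 arrays. BIK in 30iiB steps down from a mean of 8.97 at 0 h to 8.02, 6.92 and 6.19, while its GRalpha arrays at 0 h spread from 5.26 to 8.51.

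For the differences in response from GRalpha, member calls were 0 in every comparison but that of A477T at 24 h, where 1.77% of all probes were called at 24 h in GRgamma, 0.305% in 30iiB and 1.53% in E773R. At 2 h the shares of all probes called were 0.091% (GRgamma), 0.403% (A477T), 0% (30iiB) and 0.11% (E773R), and at 4 h they were 0.325%, 1.29%, 0.0455% and 0.383% in the same order. Over these 204 tests 13 had an unadjusted p under 0.05. In the same comparisons 287 (E773R at 2 h) to 1749 (A477T at 24 h) of all 15392 probes did. The intervals were wide: for BMF ILMN_2308338 the GRgamma response at 24 h differed from that of GRalpha by -0.13 (95% CI -1.09 to 0.84), that of 30iiB by -0.33 (-1.29 to 0.63) and that of E773R by 0.28 (-0.68 to 1.24).

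By role, the 7 probes of survival members had 5 calls at 24 h, all lower (14.3% of 35 tests, near the 12.3% of all tests called at 24 h), and 8 of their 35 values were above 0 (median -0.46). The 3 probes of the pore formers had 0 calls (median -0.3). The 7 probes of the BH3-only members had 8 calls higher, all BMF, and 1 lower, BIK in 30iiB (25.7% of 35 tests, median 0.43), and both BMF probes read 1 gene. At 24 h the medians of all probes lay between -0.03 and 0.01. A median over several probes of 1 gene counts that gene more than once.

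Other genes of the pathway were taken as lists, chosen with earlier results of these data known. Of 19 other genes, BCL2 relatives together with BAG1, BAG3, BECN1 and TMBIM6, 16 were kept, with 22 probes. At 2 h 2 of 110 tests were higher (1.82%, with 1.42% of the tests of all probes called), at 4 h 3 (2.73%, with 3.24%), and at 24 h 9 were higher and 6 lower (13.6%, with 12.3%), shares near those of all probes. BAG3, a co-chaperone that binds BCL2, rose at all 3 times, most in GRgamma (log2 changes 1.18, 1.51 and 1.58, adjusted p = 1.7e-05, 1.4e-08 and 9.7e-10), and it was called in all 5 forms at 24 h. Every call of this list at 2 h and 4 h was BAG3. BNIP3, a BH3-like protein of mitochondria, rose at 24 h, most in 30iiB (1.17, SE 0.2, adjusted p = 5.6e-06), and was called in A477T too (1.06, adjusted p = 7.7e-05). BOK, a relative of BAX, fell most in GRgamma at 24 h (-1.2, SE 0.34, adjusted p = 0.0075).

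Downstream of the mitochondria, 17 of 22 apoptosome, caspase and inhibitor genes were kept, with 28 probes. They held 0 calls in 140 tests at 2 h and at 4 h in limma, and 7 higher and 0 lower at 24 h (5%, where 12.3% of all tests were called). APAF1, the scaffold of the apoptosome, rose in GRalpha (1.1, SE 0.26, adjusted p = 0.00072), GRgamma, 30iiB and E773R, and was 0.68 in A477T (adjusted p = 0.096). CASP9, the caspase it activates, rose in GRgamma (0.97, SE 0.35, adjusted p = 0.047), and CASP6 in 30iiB (0.91, SE 0.28, adjusted p = 0.014).

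Among regulators of the members 18 of 19 genes were kept, with 26 probes. At 24 h 33 of 130 tests were higher and 19 lower (40%, with 12.3% of all tests called). This list was chosen with earlier results of these data known, so the higher share is no result about regulators. TSC22D3 (GILZ), a classical glucocorticoid target, rose from 2 h (3.31 in GRalpha on ILMN_2376403, adjusted p = 1.5e-09). FBXW7, part of a ubiquitin ligase that marks MCL1 for degradation, rose most in GRgamma (2.66, 2.88 and 3.08 at 2, 4 and 24 h on ILMN_1655906, adjusted p = 3.4e-08, 1.1e-09 and 3.3e-11). In A477T at 24 h FBXW7 was -0.19 (adjusted p = 0.89) on the same probe. RUNX3, a transcription factor known to act on BCL2L11, fell most in 30iiB on ILMN_1787461 (-2.02, -2.57 and -2.62 at the 3 times, adjusted p = 1.7e-05, 1.8e-08 and 2.7e-09). On that probe it fell in A477T by 2.11 at 24 h on the log2 scale (adjusted p = 1.5e-06). On ILMN_1751839 RUNX3 was called in no response but that of 30iiB at 24 h (at least 1.57-fold lower, adjusted p = 0.013). The forkhead factors FOXO1, FOXO3 and FOXO4, which can activate BCL2L11, were picked after their values were seen. Each was called higher at 24 h in GRalpha, GRgamma, 30iiB and E773R, by 2.55, 2.07 and 1.59 in GRalpha (adjusted p = 1.3e-09, 1.7e-09 and 8.4e-05). FOXO1 was also called in GRalpha at 2 h (1.83, adjusted p = 4.8e-05). BMF was not called there, with a change of 0.96 on ILMN_1695354 (adjusted p = 0.21), and the order in time was not tested. APAF1, TSC22D3, FBXW7 (on ILMN_1655906) and SESN1 were also called higher in these 4 forms at 24 h. The other called FBXW7 probe, ILMN_1754279, was called in GRalpha, GRgamma and 30iiB and not in E773R. A link of any of these genes to BMF was not tested.

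Of 14 p53 target genes 11 were kept, with 13 probes, and at 24 h 7 of 65 tests were higher and 2 lower (13.8%, near the 12.3% of all tests). At 2 h 5 of 65 were higher (7.69%, with 1.42% of all tests called) and at 4 h 4 (6.15%, with 3.24%). Every call of this list at 2 h and 4 h was TP53I3. SESN1, a stress-response protein also induced by forkhead factors, rose most in GRalpha (2.93, SE 0.31, adjusted p = 9.7e-12) and was 0.32 in A477T (adjusted p = 0.75). TP53I3, an oxidoreductase, rose in GRalpha and A477T at all 3 times on at least 1 of its probes, with its largest values 1.18 at 2 h and 1.39 at 4 h in GRalpha (ILMN_1651967, adjusted p = 0.00046 and 9.2e-06) and 1.42 at 24 h in A477T (ILMN_2358919, adjusted p = 9.3e-08). It was also called higher in 30iiB at 2 h (1.14 on ILMN_1651967, adjusted p = 0.00079). CDKN1A, the cell cycle inhibitor p21, fell at 24 h in A477T (-1.5, SE 0.37, adjusted p = 0.003) and 30iiB (-1.16, SE 0.37, adjusted p = 0.019). Among the marker lists, 8 of 35 tests of epithelial probes were called lower at 24 h and 1 higher (25.7%). Of 65 tests of osteosarcoma probes 12 were lower and 1 higher (20%), where 12.3% of all tests were called. The part of these markers in the member results was not tested.

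The genes whose levels over the 20 group means were most like those of BMF were MTA3 (r = 0.921 with ILMN_1695354 and 0.901 with ILMN_2308338) and TCP11L2 (0.897 and 0.891), followed by KIF3C (0.893) for the first probe and FAM13C (0.887) for the other. For BCL2 ILMN_2246956 they were MKX (0.92), OSBPL6 (0.917) and SLC7A11 (0.913). MTA3 was called in 0 forms at 24 h, with values from 0.24 to 0.42 and 0.39 in A477T, so its likeness to BMF over the 20 groups did not extend to the size of the 24 h change. These are descriptions over groups that share arrays, slides and normalisation.

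Arrays of 1 slide deviated together: the median correlation of their deviations from the group means was 0.354, against -0.044 between slides. The 10 slides held 8 arrays each and at most 1 of a group. Within slides that held both groups of a called response or 0 h difference, 45 of 45 differences had the direction of the call, over 25 calls, and 2 calls had no such slide. These are the arrays that gave the calls, and both BMF probes were read on the same ones, so this describes the calls and is no independent support. With the slide as a block the member calls at 24 h numbered 23 in place of 14, while the share of all tests called went from 12.3% to 16.3%.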

How the data were processed

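Per the labels, RNA of U2OS cells expressing 1 of 5 glucocorticoid receptor forms was hybridised to single-colour Illumina bead arrays, 4 biological replicates in each of 20 groups. The authors deposited a non-normalized intensity and a detection p-value for each of 25204 probes on 80 arrays, and a table of processed log2 values, whose normalisation was not stated (array medians 7.89 to 7.97), used as an alternative. Intensities were background-corrected and quantile-normalised with neqc (offset 16) in limma 3.58.1 under R 4.3.3. Probes with 1 gene symbol that were detected (p under 0.05) on at least 4 arrays were kept, 15392 of 19291. The other 5913 probes of the deposited table had no single gene symbol. A fit of the 20 group means (60 residual degrees of freedom) gave 36 contrasts by moderated two-sided tests, Benjamini-Hochberg adjusted within each. Where none of a group's 4 arrays was above background, a fold is a bound from the lowest signal above background. Precision is limited by having 4 arrays a group. The procedure was run on simulated data with independent noise on each array. Those data held no slide effect, so they cannot show how slides affect the calls. All member probes were named, with array values for those called, and from each other list up to 3 called probes with the largest change at each time. Members, lists and tests were chosen with earlier results of these data known. Alternatives were the slide or replicate number as a block, background, scaling, filters, array weights, 1 probe per gene, the processed values, single arrays left out and, added after the data were seen, the dimmest slide left out. Promoter sequences are RefSeq's. Plots used matplotlib 3.10.9 (Python 3.11.15).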

Additional observations from a re-analysis of the deposited data

Results flagged for a closer look

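Single arrays far from their group were looked for only on member probes called in a comparison. The other member probes were not tested in this way. Among these 140 groups of 4 arrays, 12 held an array whose gap to the nearest array was large against the group's range. By chance about 1 in 20 would. For BCL2L1 these were GRalpha 2 h replicate 1 on ILMN_1654118 (14.43, nearest 13.45), and on ILMN_1742410 GRalpha 0 h replicate 3 (10.91, nearest 10.14), 30iiB 24 h replicate 4 (10.33, nearest 9.06) and E773R 2 h replicate 1 (10.6, nearest 9.49). For BCL2L11 on ILMN_2359627 it was 30iiB 0 h replicate 1 (6.21, nearest 8.1). For BMF on ILMN_2308338 they were GRgamma 4 h replicate 1 (6.09, nearest 5.53), 30iiB 24 h replicate 1 (6.54, nearest 7.6) and E773R 4 h replicate 2 (5.35, nearest 6.04). For BMF on ILMN_1695354 they were GRalpha 24 h replicate 1 (7.05, nearest 7.98), 30iiB 2 h replicate 4 (6.83, nearest 5.63), E773R 0 h replicate 3 (5.48, nearest 4.94) and E773R 2 h replicate 4 (5.1, nearest 5.79). The response of BMF ILMN_1695354 at 24 h differed between A477T and GRalpha by -1.5 in a test of the difference itself.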

How the results depend on the processing

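Over 577 repeats of 28 called results under the alternatives, 533 kept direction and call, 44 kept the direction and lost the call, and 0 reversed. Member calls at 2 h, 4 h and 24 h, for 24 h against 4 h, for response differences and at 0 h were 0, 1, 14, 11, 1 and 1. Array weights gave 2, 4, 23, 19, 5 and 3, and the authors' processed values 1, 7, 30, 17, 6 and 3. Calls among all probes rose too, at 24 h from 12.3% of tests to 18.9% with array weights and 23.6% with processed values. The slide as a block gave 2 at 4 h, 23 at 24 h and 3 differences. With only the compared groups fitted there were 0 differences and 0 at 0 h. No background correction, an offset of 50 and median scaling each gave 2 differences. Without the detection filter there were 0 at 4 h and 0 differences. Detection on at least 40 arrays gave 7 for 24 h against 4 h and 0 differences, and 1 probe per gene gave 9 at 24 h, 7 for 24 h against 4 h and 0 differences. Both settings left BMF ILMN_1695354 untested, which held 4 main calls at 24 h, 4 for 24 h against 4 h and the 1 difference. The setting of 1 probe per gene also left out BCL2L1 ILMN_1742410, with 1 call at 24 h. All calls that remained in these settings, 19 and 18, were also calls of the main fit. Without the dimmest slide there were 2 at 4 h and 0 at 0 h. Leaving out single arrays gave 0 to 0 at 2 h, 0 to 1 at 4 h, 13 to 16 at 24 h, 10 to 12 for 24 h against 4 h, 0 to 2 differences and 0 to 2 at 0 h. The cause of the other shifts was not tested. Replicate numbers were not taken as pairs: 36 of 80 same-numbered pairs correlated over 0.1, and an array matched its own number best in 27 of 80. The replicate block gave 2 at 4 h, 15 at 24 h, 11 for 24 h against 4 h and 2 differences. BMF in GRalpha on ILMN_2308338 ranged from 0.77 to 2.08 over 21 alternatives. Probes near background, BMF ILMN_1695354 (35 arrays detected) among them, limit what a fall can show.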
